A study of Mus musculus with 12 samples.

Results

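The miR-30 family was followed in fibrotic mouse liver as 10 mature miRNAs, of 1929 in the deposited count table: the 5p arms mmu-miR-30a-5p, mmu-miR-30b-5p, mmu-miR-30c-5p, mmu-miR-30d-5p and mmu-miR-30e-5p, and the 3p arms mmu-miR-30a-3p, mmu-miR-30e-3p, mmu-miR-30d-3p, mmu-miR-30c-2-3p and mmu-miR-30c-1-3p. The prefix mmu, for mouse, is left out from here on. Members were chosen by name, as arms of the family, with earlier results of these data known. The remaining arm of the family in the table, miR-30b-3p, was not in that selection and is given for comparison. Of the 12 liver libraries, 6 came from C57BL/6 mice with CCl4 injury that received PZH into the stomach every day, and 6 from C57BL/6 mice with the same injury that received double distilled water in its place. PZH stands for Pien Tze Huang, a traditional Chinese medicine. Mice of both groups received intraperitoneal injections of what the labels call CCl4 solvent, a liver toxin used to produce hepatic fibrosis. The labels give no age, sex or dose, and no uninjured livers were analysed here, so every comparison lies within injured liver. They also do not say that each library came from a separate mouse, so p-values measure the spread between these liver samples.

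A miRNA is cut from a hairpin RNA, whose sides give a 5p and a 3p arm. One arm, the guide, is mostly kept in the silencing complex, where its seed, bases 2 to 8, pairs with target messages and lowers their translation and stability. In the miR-30 family the 5p arm is the guide. The family is known in liver and other organs for restraining Snai1, a driver of epithelial-to-mesenchymal transition, Ccn2, a growth factor that promotes matrix deposition, and Becn1, an autophagy gene, and miR-30a and miR-30c have been described as restraining fibrosis. Target messages were not measured in these libraries, which hold small RNA alone.

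Sequences show what the members share and how little separates some of them. RefSeq (GRCm38.p6) gave the mature sequence of 7 of the 10 members. The guide arms are shown first, 5′ to 3′, with the seed in capitals.
miR-30a-5p: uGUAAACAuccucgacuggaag
miR-30e-5p: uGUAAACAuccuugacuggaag
miR-30c-5p: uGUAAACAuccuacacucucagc
These 3 guide arms had the same first 12 bases and the seed GUAAACA, and miRNAs with the same seed are generally predicted to recognise overlapping sets of targets. Counting from the 5′ end, miR-30e-5p differs from miR-30a-5p at a single base, C13U. The read handling behind the counts is not given in the sources used here, so reads of near-identical arms may have been divided or shared between them.

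The partner arms fall into another pair of seed groups, shown in the same way.
miR-30a-3p: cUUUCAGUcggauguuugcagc
miR-30e-3p: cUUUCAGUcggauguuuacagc
miR-30c-1-3p: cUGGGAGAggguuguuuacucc
miR-30c-2-3p: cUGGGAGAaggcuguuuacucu
The partner arms of miR-30a and miR-30e share the seed UUUCAGU and differ at G18A, miR-30a-3p first. Those of miR-30c share the seed UGGGAGA and differ at G9A, U12C and C22U, miR-30c-1-3p first. Every arm with a sequence was 22 or 23 bases long, so levels were compared between arms without a correction for length. Levels are in CPM (counts normalised to library size, after scaling by the trimmed mean of M-values, TMM). How well each sequence was captured in a library was not corrected for either, so ranks and ratios between arms describe counts.

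Among the 1647 of 1929 table rows with a RefSeq mature sequence, the seed of the guides was found in 1 further miRNA, miR-384-5p, from chromosome X.
miR-384-5p: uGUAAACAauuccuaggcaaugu
It shared the first 8 bases with miR-30a-5p, but it had 0 to 26 counts per library and did not pass the filter on low counts. Among the rows with a sequence, miR-30a-5p, miR-30c-5p and miR-30e-5p therefore held nearly all counts of this seed. A separate entry, miR-30f, is read from the strand opposite the miR-30e hairpin and has its seed shifted by 1 base; it averaged 8.93 ± 1.83 CPM in PZH livers and 10.6 ± 0.955 CPM in water livers (SD, n = 6 each).

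The hairpins lie in clusters of 2. On chromosome 1 (GRCm38), Mir30a (chr1:23272269-23272339, plus strand) has no host gene on its strand in the annotation, and Mir30c-2 (chr1:23291701-23291784, plus strand), 19361 bases downstream, overlaps an exon of the long non-coding RNA Gm27028. On chromosome 4, Mir30c-1 (chr4:120769534-120769622, minus strand) and Mir30e (chr4:120772606-120772697, minus strand) lie 2983 bases apart in an intron of Nfyc, which encodes a subunit of the transcription factor NF-Y. Mir30b and Mir30d lie 3697 bases apart on chromosome 15. The 4 hairpins with a RefSeq entry show how a single guide sequence can come from separate loci; mature arms are in capitals.
Mir30a: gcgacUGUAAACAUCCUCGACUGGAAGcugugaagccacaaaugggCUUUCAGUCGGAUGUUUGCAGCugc
Mir30e: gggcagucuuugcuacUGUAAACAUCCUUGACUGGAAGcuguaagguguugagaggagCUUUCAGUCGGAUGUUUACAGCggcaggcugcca
Mir30c-1: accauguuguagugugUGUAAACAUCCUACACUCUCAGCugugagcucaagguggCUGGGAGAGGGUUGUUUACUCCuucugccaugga
Mir30c-2: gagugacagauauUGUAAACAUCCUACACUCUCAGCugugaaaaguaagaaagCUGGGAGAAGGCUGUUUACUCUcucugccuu
Both miR-30c hairpins hold the same 5p arm, so the level of miR-30c-5p cannot be divided between chromosomes 1 and 4, whereas the 3p arms can.

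Total counts ranged from 4961913 to 20211784 per library. The livers were rich in the hepatocyte miRNA miR-122-5p, at 107905 ± 13911 CPM in PZH livers and 104137 ± 8000 CPM in water livers (SD, n = 6 each), as the tissue label says. Within the table, no cell held the value 1, so the smallest count above 0 was 2. This did not touch the family, whose least abundant member, miR-30c-1-3p, had at least 111 counts in every library. All 10 members passed the filter on low counts.

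The guide arms were among the most abundant liver miRNAs. Averaged over the 12 libraries, miR-30a-5p stood at 31762 CPM and had rank 7 of 1929 in abundance. It was followed by miR-30e-5p (11933 CPM, rank 17), miR-30d-5p (10372 CPM, rank 19), miR-30c-5p (6712 CPM, rank 26) and miR-30b-5p (1586 CPM, rank 66). The order held in all 12 libraries for every neighbouring pair except miR-30e-5p and miR-30d-5p, where it held in 11. That pair was 1.15-fold apart on average, and in PZH replicate 2 miR-30d-5p was the higher of them.

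Partner arms were far less abundant. They ran from miR-30a-3p (561 CPM) through miR-30e-3p (291 CPM), miR-30c-2-3p (141 CPM) and miR-30d-3p (29.4 CPM) to miR-30c-1-3p (20.5 CPM), an order kept in all 12 libraries. The 3p arms, miR-30b-3p included, held 1.82% ± 0.184 of miR-30 counts in PZH livers and 1.60% ± 0.10 in water livers (SD, n = 6 each). Of the partner arms of miR-30c, the one from chromosome 1 averaged 134 ± 13.0 CPM in PZH livers and 148 ± 7.12 CPM in water livers, and the one from chromosome 4 averaged 20.3 ± 2.06 CPM in PZH livers and 20.8 ± 2.80 CPM in water livers (SD, n = 6 each).

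The study asked which miRNAs respond to PZH in injured liver. Of the 10 members, miR-30a-5p and miR-30e-5p fell with PZH, and no member rose: miR-30a-5p fell by 19.4% and miR-30e-5p fell by 17.9%. The fit over all 607 tested miRNAs called 21.3% of them, 11.4% lower and 9.88% higher. All 10 members had a negative log2 fold change, from -0.31 to -0.02, but miR-30e-3p and miR-30c-1-3p turned slightly positive under RLE and total-count scaling. The median over the 10 was -0.13, beside -0.03 over all tested miRNAs, of which 54.9% were negative. With no filter on low counts this order turned, with -0.10 over the 10 beside -0.16 over all miRNAs. A fall in a bulk sample cannot be told apart from fewer cells of the type that holds the miRNA.

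The most abundant member, miR-30a-5p, ranged from 24351 to 33411 CPM in PZH livers (median 28505) and from 33156 to 36941 CPM in water livers (median 35454). All PZH livers except replicate 6 lay below every water liver, and replicates 2 and 5 were the lowest. Its means were 28352 ± 3341 CPM in PZH livers and 35172 ± 1473 CPM in water livers (SD, n = 6 each), a log2 fold change of -0.31 (SE 0.08, edgeR adjusted p = 0.00769). The call was lost when low counts were not filtered (log2 fold change -0.28, edgeR adjusted p = 0.0634; range over 22 alternatives 0.00323 to 0.0634). The call stood with each of the 12 libraries left out in turn, with log2 fold changes between -0.37 and -0.25.

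The guide miR-30e-5p ranged from 9089 to 12241 CPM in PZH livers (median 11018) and from 11885 to 14091 CPM in water livers (median 13205). Again PZH replicate 6 was the single PZH liver that reached into the water range, and replicates 2 and 5 were the lowest. The means were 10760 ± 1159 CPM in PZH livers and 13106 ± 775 CPM in water livers (SD, n = 6 each), a log2 fold change of -0.28 (SE 0.08, edgeR adjusted p = 0.0145). This call rested on more of the libraries than that of miR-30a-5p: it ended without PZH replicate 2 (log2 fold change -0.22, edgeR adjusted p = 0.0567), without PZH replicate 5 (-0.24, edgeR adjusted p = 0.0696) and without water replicate 4 (-0.26, edgeR adjusted p = 0.0574). It also ended with no filter on low counts, with edgeR (adjusted p = 0.121) and with DESeq2 (adjusted p = 0.0675; range over 22 alternatives 0.0113 to 0.121).

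The other guides had negative values that did not pass the test. The level of miR-30b-5p was 1325 to 1634 CPM in PZH livers (median 1495) and 1482 to 1900 CPM in water livers (median 1685), with a log2 fold change of -0.20 (SE 0.08, edgeR adjusted p = 0.0771). Water replicate 2 was its lowest water liver, inside the PZH range, and without that library miR-30b-5p was called (log2 fold change -0.24, edgeR adjusted p = 0.0296; range over 22 alternatives 0.0296 to 0.455). For miR-30c-5p the values were 5609 to 6929 CPM in PZH livers (median 6570) and 6693 to 7370 CPM in water livers (median 7038).

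The log2 fold change of miR-30c-5p was -0.15 (SE 0.07, edgeR adjusted p = 0.152), with PZH replicates 3 and 5 the lowest and 3 PZH livers within the water range. For miR-30d-5p the values were 9330 to 10923 CPM in PZH livers (median 9636) and 10152 to 11762 CPM in water livers (median 10577), a log2 fold change of -0.12 (SE 0.07, edgeR adjusted p = 0.222). Its PZH replicates 3 and 6 lay within the water range and the other 4 below every water liver. At an unadjusted p under 0.05 there were 4 of the 5 guides, miR-30d-5p being the exception, where 32.3% of all tested miRNAs were. For none of the 10 members were the groups free of overlap, where 4.94% of tested miRNAs were lower, and 5.11% higher, in every PZH liver than in every water liver.

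**Figure D1:**
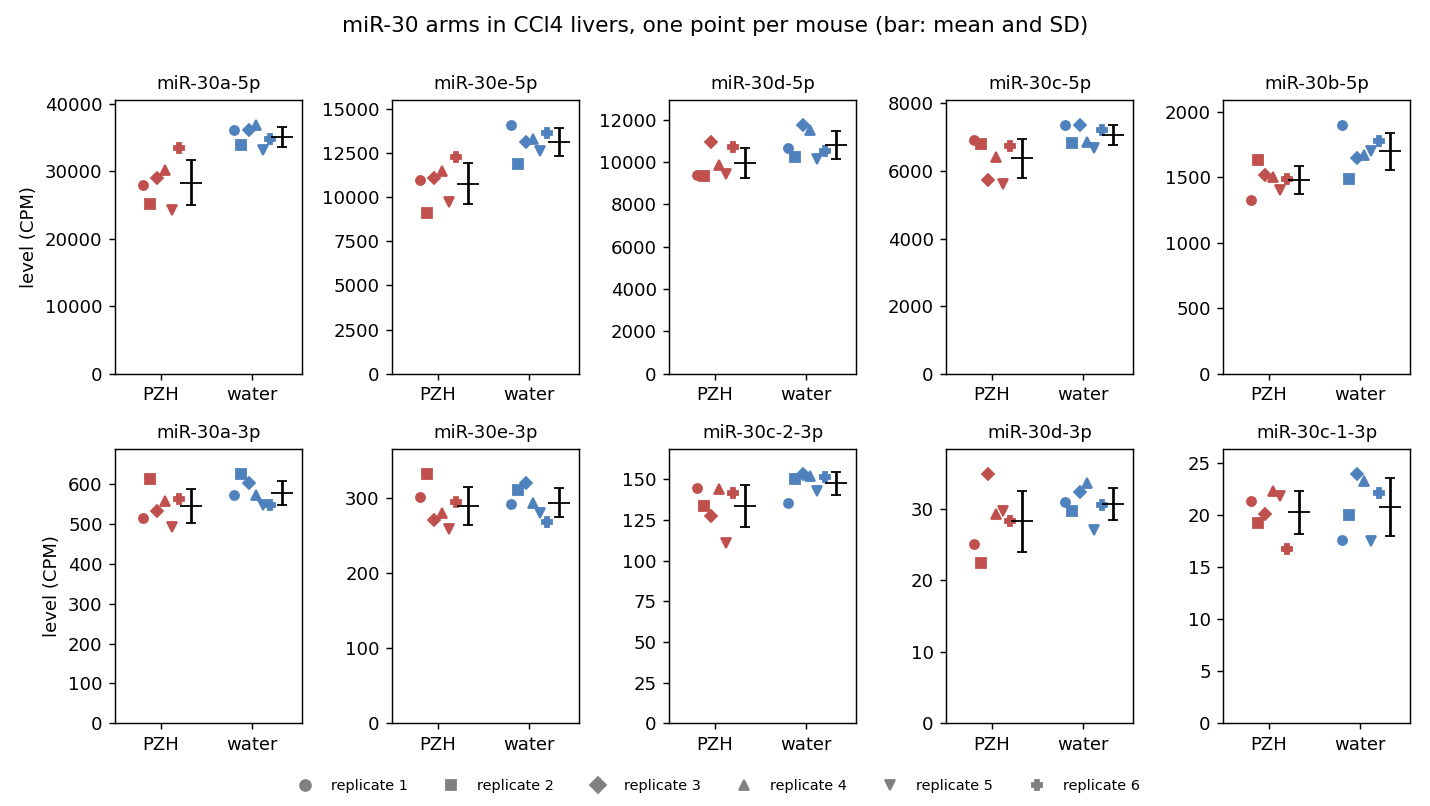
Levels of the 10 miR-30 members in CPM after TMM scaling, in PZH (red) and water (blue) livers; each point is a library, marker shape gives the replicate number, and the black bar gives the mean and SD (n = 6). For miR-30a-5p and miR-30e-5p, 5 of 6 PZH livers lie below every water liver, while for each 3p arm in the lower row at most 3 of 6 do.

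The 3p arms gave no call. The level of miR-30a-3p was 492 to 613 CPM in PZH livers (median 544) and 547 to 624 CPM in water livers (median 571), a log2 fold change of -0.08 (SE 0.08, edgeR adjusted p = 0.515). PZH replicate 2, among the lowest livers for the miR-30a guide, had the highest PZH level of this partner arm. For miR-30e-3p the values were 258 to 331 CPM in PZH livers (median 287) and 268 to 319 CPM in water livers (median 291), a log2 fold change of -0.02 (SE 0.08, edgeR adjusted p = 0.906). Here the highest of all 12 livers was again PZH replicate 2.

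From the miR-30c hairpin of chromosome 1, miR-30c-2-3p had 111 to 145 CPM in PZH livers (median 138) and 135 to 153 CPM in water livers (median 151), a log2 fold change of -0.14 (SE 0.09, edgeR adjusted p = 0.308). PZH replicate 5 was the lowest, and 4 water livers lay above all PZH livers. The chromosome 4 partner, miR-30c-1-3p, stood at -0.03 (SE 0.12, edgeR adjusted p = 0.906) and miR-30d-3p at -0.12 (SE 0.12, edgeR adjusted p = 0.564), the 2 arms with the fewest counts. The arm outside the selection, miR-30b-3p, had a log2 fold change of 0.03 (SE 0.09, edgeR adjusted p = 0.902). At an unadjusted p under 0.05 there were 0 of the 5 member 3p arms by edgeR, and DESeq2 and limma-voom also called 0 of them.

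**Figure D2:**
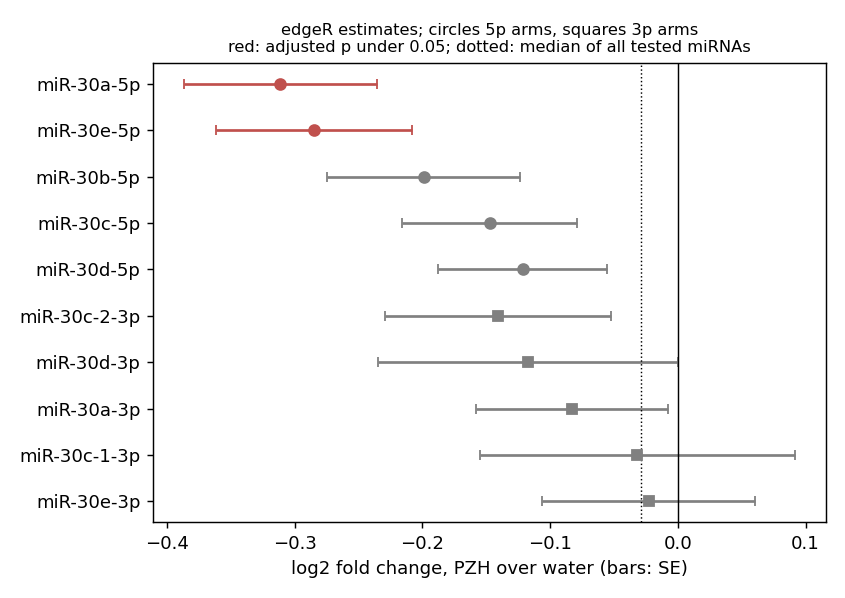
Log2 fold changes of the 10 members, PZH over water, from edgeR, with bars of 1 SE; circles are 5p arms, squares are 3p arms, and red marks an adjusted p under 0.05. The guides run from -0.31 for miR-30a-5p to -0.12 for miR-30d-5p, the partner arms from -0.14 to -0.02 (miR-30e-3p and miR-30c-1-3p turn positive under RLE and total-count scaling), and the dotted line is the median of all tested miRNAs, -0.03.

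A guide and its partner arm are cut from the same hairpin and counted in the same library, so their ratio needs no scaling between libraries. The 5p count per 3p count of the miR-30a hairpin was 41.0 to 59.5 in PZH livers (median 54.3) and 54.3 to 64.7 in water livers (median 61.9). Both groups had their lowest value in replicate 2. The difference of the log2 ratio, PZH minus water, was -0.23 (SE 0.10, limma adjusted p = 0.18) and did not pass the test.

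The ratio of the miR-30e hairpin was 27.5 to 41.6 in PZH livers (median 39.4) and 38.3 to 50.9 in water livers (median 45.3), a log2 difference of -0.26 (SE 0.12, limma adjusted p = 0.181). PZH replicate 2 was far below the rest, at 4.78 on the log2 scale against 5.19 in the next PZH liver. For the miR-30b hairpin, 5 of 6 PZH livers lay below every water liver, with 36.6 to 45.5 in PZH livers (median 41.3) and 43.5 to 57.0 in water livers (median 46.2). Its log2 difference was -0.23 (SE 0.10, limma adjusted p = 0.18).

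No change of the arm ratio passed the test for any of the 6 miR-30 hairpins, where limma called 8.64% of 162 hairpins in either direction and 2.47% lower. At an unadjusted p under 0.05 there were 3 of the 6, those of miR-30a, miR-30b and miR-30e, where 26.5% of all hairpins were. The median log2 difference over all 162 hairpins was 0.06. Differences for the others were -0.12 (SE 0.13) for miR-30c-1, -0.01 (SE 0.09) for miR-30c-2 and 0.01 (SE 0.10) for miR-30d. In miR-30c the shared 5p row makes the ratio a mixture, with 5p reads of both hairpins set against the 3p reads of one.

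The hairpins differed far more from each other than between groups. The 5p count per 3p count averaged 355 ± 40.0 for miR-30d in PZH livers and 352 ± 13.5 in water livers, but 37.5 ± 5.38 for miR-30e in PZH livers and 44.9 ± 4.64 in water livers (SD, n = 6 each). So the 3p arm of miR-30d had few counts even though its guide was counted nearly as often as that of miR-30e. The count of calls behind the background was itself unsteady. It was 3 without water replicate 1 or 4, 4 without water replicate 5 or PZH replicate 4 or 6, 5 without water replicate 3 or PZH replicate 1, 6 without PZH replicate 5 or with a block for the replicate number, and 23 with a minimum mean of 100 counts, against 14 as analysed.

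**Figure D3:**
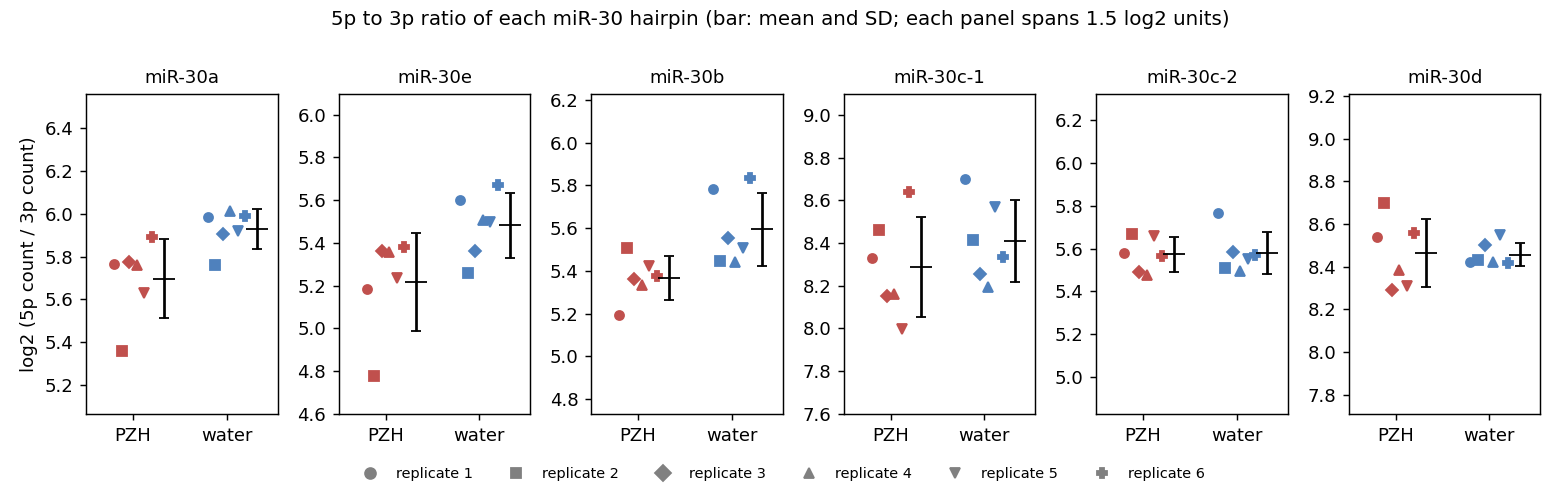
Log2 ratio of 5p to 3p counts for the 6 miR-30 hairpins in PZH (red) and water (blue) livers, each point a library, with the mean and SD as a black bar (n = 6); every panel spans the same width but is centred on its own mean. The differences, PZH minus water, are -0.23 for miR-30a, -0.26 for miR-30e, -0.23 for miR-30b, -0.12 for miR-30c-1, -0.01 for miR-30c-2 and 0.01 for miR-30d. None passed the test.

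Seen together, the 5 guides held 5.32% to 6.06% of all counts in PZH livers (median 5.86%) and 6.11% to 7.04% in water livers (median 6.75%). On this scale of raw shares the groups did not overlap. After TMM scaling the summed level was 56895 ± 5136 CPM in PZH livers and 67836 ± 2858 CPM in water livers (SD, n = 6 each), and PZH replicate 6, at 64567 CPM, lay above the lowest water liver at 64313 CPM. Whether the groups separated thus depended on the scaling. The largest part of the sum is miR-30a-5p, and it is described without a test.

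The make-up of the guide pool is given as shares. With PZH, miR-30a-5p made up 48.2% to 51.7% of the 5 guides (median 49.6%), against 51.3% to 52.7% in water livers (median 51.6%), and 5 of 6 PZH livers lay below every water liver. The share of miR-30d-5p was 16.6% to 18.7% in PZH livers (median 17.3%) and 15.2% to 16.8% in water livers (median 15.9%), with 3 PZH livers above every water liver. For miR-30c-5p the share was 9.84% to 13.1% in PZH livers (median 10.9%) and 9.77% to 10.6% in water livers (median 10.5%). By this share, 4 PZH livers lay above every water liver. The share of miR-30e-5p averaged 18.9% ± 0.712 in PZH livers and 19.3% ± 0.696 in water livers, and that of miR-30b-5p 2.61% ± 0.310 in PZH livers and 2.50% ± 0.175 in water livers (SD, n = 6 each). These shares add up to a whole, so that 1 cannot fall without another rising, and they were not tested.

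**Figure D4:**
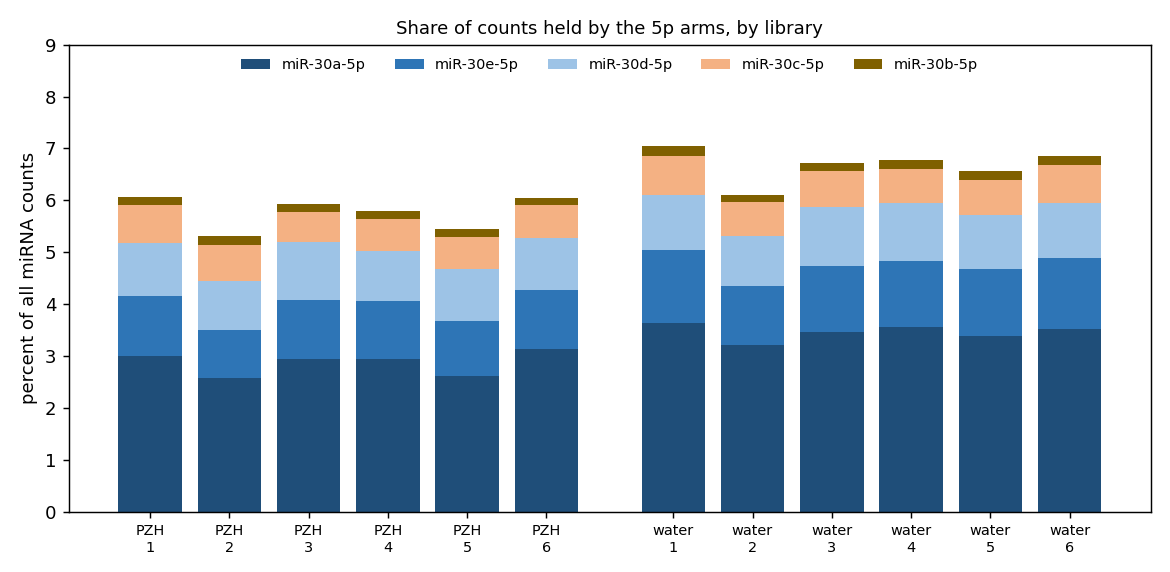
Percent of all miRNA counts in each library held by the 5 miR-30 guide arms, stacked by arm, PZH livers on the left and water livers on the right. The stacks reach 5.32% to 6.06% with PZH and 6.11% to 7.04% with water, and miR-30a-5p makes up the lowest block, 48.2% to 52.7% of each stack.

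The guides miR-30a-5p and miR-30e-5p, which differ by 1 base and lie on different chromosomes, moved most alike across livers. The count ratio of miR-30a-5p to miR-30e-5p was 2.50 to 2.77 in PZH livers (median 2.62) and 2.55 to 2.85 in water livers (median 2.69), and the log2 ratio had an SD of 0.06 over the 12 libraries. For the other 9 pairs of guides this SD lay between 0.13 and 0.17. RefSeq gave no sequence for miR-30b-5p and miR-30d-5p, so their base differences from miR-30a-5p were not compared. Reads of near-identical arms may have been divided or shared between miR-30a-5p and miR-30e-5p, and the part of this in their likeness was not tested. The ratio of miR-30d-5p to miR-30e-5p, by contrast, was 0.858 to 1.03 in PZH livers (median 0.922) and 0.756 to 0.896 in water livers (median 0.834).

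Other miRNAs with a profile like that of miR-30a-5p were sought by the root mean square difference of log2 CPM over the 12 libraries, after each was centred on its own mean, among the 166 miRNAs outside the family that averaged 100 CPM or more. The nearest were miR-203-3p (0.085), miR-192-5p (0.086), miR-101a-3p (0.090), miR-101b-3p (0.091) and miR-126a-3p (0.102), where the median over the 166 was 0.264 and miR-30e-5p stood at 0.057. Centred within each group, which removes the difference between PZH and water, the nearest were miR-148a-3p (0.058), miR-194-5p (0.058), miR-192-5p (0.065), miR-203-3p (0.069) and miR-361-5p (0.082), with miR-30e-5p at 0.055 and a median of 0.179. Of these, miR-192-5p, miR-194-5p and miR-148a-3p are abundant hepatocyte miRNAs, and miR-126a-3p is an endothelial one. The hepatocyte miRNAs miR-122-5p, miR-122-3p and miR-802-5p were not among the nearest in either comparison. These distances describe 12 libraries and carry no test.

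Markers of the cell types in liver stood beside the fall of the guides as follows. The background for each count of markers is the share over all 607 tested miRNAs, 11.4% called lower and 9.88% called higher. The summed level of 6 hepatocyte miRNAs was 202898 to 264104 CPM in PZH livers and 221357 to 256415 CPM in water livers. Among PZH livers the sum was lowest in replicate 2 and highest in replicate 6, while miR-30a-5p was lowest in replicate 5 and highest in replicate 6. In water livers both were lowest in replicate 5, but the sum was highest in replicate 3 and miR-30a-5p in replicate 4. The 2 levels share the scaling factor of each library, so they are not independent, and their relation was not tested. By edgeR, 1 of the 6 hepatocyte markers fell, miR-802-5p (log2 fold change -0.65, edgeR adjusted p = 0.0138), while miR-122-5p stood at 0.05.

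Both endothelial markers, the arms of miR-126a, fell, with a summed level of 10272 to 13900 CPM in PZH livers and 12863 to 17096 CPM in water livers. Of 5 leukocyte markers 1 fell, the myeloid miR-223-3p (log2 fold change -0.58, edgeR adjusted p = 0.00583), with sums of 3091 to 5513 CPM in PZH livers and 4147 to 5972 CPM in water livers. The 5 markers listed as mesenchymal gave no call, with sums of 52788 to 92619 CPM in PZH livers and 63446 to 92359 CPM in water livers. The mean sums were 73260 CPM in PZH livers and 73125 CPM in water livers. Most of that was miR-143-3p alone, at 61879 CPM in PZH livers and 62656 CPM in water livers. The mesenchymal sum thus says little about the less abundant markers in it, and which cells it reflects was not tested. Of 5 epithelial and biliary markers 2 fell, miR-200c-3p and miR-141-3p, with sums of 864 to 1246 CPM in PZH livers and 931 to 2192 CPM in water livers. Erythroid markers gave no call among 3, muscle markers none among 2 tested, and of 3 pancreas markers the 1 that was tested, miR-375-3p, fell (log2 fold change -1.97, edgeR adjusted p = 0.00769). The other pancreas markers did not pass the filter on low counts: miR-216a-5p averaged 0.405 CPM in PZH livers and 0.345 CPM in water livers, and miR-217-5p 1.41 CPM in PZH livers and 0.63 CPM in water livers. None of these markers was at 0 in all libraries. Water replicate 2 had the highest water sum of the epithelial and biliary markers (2192 CPM, water median 1077 CPM). It was also the highest water liver for muscle (89.2 CPM, water median 20.4 CPM), pancreas (27.9 CPM, water median 7.72 CPM) and mesenchymal markers. For endothelial, leukocyte and erythroid markers it was the lowest. Whether the calls of miR-200c-3p, miR-141-3p and miR-375-3p hold without that library was not tested. The part of cell make-up in the fall of miR-30a-5p and miR-30e-5p was not tested.

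Outside the family, 19 other miRNAs described as restraining fibrosis were all tested, of which 8 fell and 0 rose by edgeR. Over all 607 tested miRNAs 11.4% were called lower and 9.88% higher. The median log2 fold change of the 19 was -0.20, with 14 of 19 negative values, beside a median of -0.03 and 54.9% negative over all tested miRNAs. The 4 with the smallest p were miR-335-5p (log2 fold change -0.77, edgeR adjusted p = 0.00306), miR-29c-3p, which represses collagen messages (-0.40, edgeR adjusted p = 0.00583), miR-455-3p (-0.53, edgeR adjusted p = 0.00635) and miR-378a-3p (-0.33, edgeR adjusted p = 0.00755). Of the 19, miR-122-5p, miR-194-5p, miR-148a-3p, miR-200a-3p, miR-150-5p and miR-133a-3p are also cell type markers above, and none of them was called. The list was put together with earlier results of these data known, so its count is not independent evidence of a direction. In size, the changes of miR-30a-5p (-0.31) and miR-30e-5p (-0.28) lay close to that of miR-378a-3p and were smaller than that of miR-335-5p.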

How the data were processed

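The authors deposited 1 table of raw counts per mature miRNA, 1 column per liver library, with no normalization. Per the submitters' processing notes, cutadapt, FastQC, BWA and DESeq2 were used with the build GRCm38; per the labels' protocols, Trizol was used for extraction and a TruSeq kit for the small RNA libraries. How reads were counted, on which strand, and where a read with several matches went is not given in the sources used here. The reads carry no stated molecular identifiers.

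Counts were compared with the edgeR 4.0.16 quasi-likelihood test (R 4.3.3) with TMM scaling; its default filter on low counts kept 607 miRNAs. Calls used a Benjamini-Hochberg adjusted p under 0.05 over all 607. SEs were derived from the edgeR F statistic. Arm ratios were log2 of 5p over 3p counts with a pseudocount of 1, for 162 hairpins with a mean of at least 20 counts on both arms, tested with limma 3.58.1. Alternatives included DESeq2 1.42.0. Scripts were tested on simulated data. Sequences and coordinates come from RefSeq (GRCm38.p6) and GENCODE (GRCm38).

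Members and lists were chosen with earlier results of these data known. The rule for naming described all 10 members, miRNAs with the guide seed, the 5 profiles nearest to miR-30a-5p, and up to 4 other miRNAs described as restraining fibrosis. Other miRNAs, such as miR-30b-3p, miR-30f and single markers, were named after their values were seen.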

Additional observations from a re-analysis of the deposited data

Results flagged for a closer look

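In 44 groups of 6 libraries (levels, arm ratios and shares of the miR-30 arms), 5 had a library set apart from the other 5 by more than Dixon's 95% limit; chance gives about 1 in 20 groups, and the 44 are not independent. PZH replicate 2 was low in the arm ratio of miR-30e (4.78 on the log2 scale, 5.19 in the next) and in the share of miR-30e-5p among the guides (17.5%, 19.0% in the next). PZH replicate 5 was low in miR-30b-3p (32.5 CPM, 35.7 in the next). Water replicate 1 was high in the arm ratio of miR-30c-2 (5.77 on the log2 scale, 5.58 in the next). Water replicate 4 was low in the share of miR-30c-5p among the guides (9.77%, 10.4% in the next).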

How the results depend on the processing

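The number of members called lower was 2 as analysed, 0 with no filter on low counts, 1 by DESeq2 with no filter on low counts (chosen after seeing the data) and 1 to 3 with a library left out; the cause was not tested. With a block for the replicate number it was 2, with 114 calls over all miRNAs against 129. No source says that the numbers pair mice; same-numbered libraries correlated at -0.15 to 0.08 after centring on group means, and 0 of 6 PZH libraries correlated best with their own number. Over all 22 alternatives the calls of all miRNAs ranged from 94 to 144. Without a filter the median log2 fold change of all miRNAs was -0.16 against -0.03. The members, at a median of -0.10, then lay above it, and by DESeq2 with no filter they stood at -0.085 beside -0.14.

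Only values without a call changed sign. For miR-30e-3p and miR-30c-1-3p the log2 fold changes were 0.014 and 0.0052 with RLE, 0.024 and 0.020 with total counts, 0.0092 and 0.0051 with no filter, 0.065 and 0.057 with a filter of 10 CPM in 6 libraries, 0.013 and 0.012 by DESeq2, and 0.022 and 0.020 by DESeq2 with no filter. The filter of 10 CPM also turned miR-30a-3p to 0.0038. With a library left out, miR-30e-3p ranged from -0.047 to 0.024, miR-30c-1-3p from -0.077 to 0.024, and the arm ratios of miR-30c-2 from -0.025 to 0.032 and miR-30d from -0.040 to 0.042. Hairpins with a called arm ratio numbered 14 as analysed, 23 with a minimum mean of 100 counts, 6 with the replicate block and 3 to 17 with a library left out, while no miR-30 hairpin was called under any of the 16 alternatives. The low counts of miR-30c-1-3p and miR-30d-3p limit their precision.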
